A study of Mus musculus with 2 samples.

Results

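The 8 genes Slc1a2, Slc1a3, Glul, Slc6a11, Slc6a9, Slc38a3, Glud1 and Abat, which encode transporters and enzymes that clear glutamate, GABA and glycine, were followed across the cell classes of mouse brain carrying a glioblastoma graft. They were selected by gene symbol, without use of their measured values, from the 32285 genes listed in both matrices, and all 8 had UMIs in both libraries. A UMI is 1 tagged RNA molecule.

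Glutamate and GABA released by neurons are removed from the extracellular space mainly by astrocytes, which take them up with sodium-driven transporters and turn glutamate into glutamine for return to neurons. Slc1a2 encodes the glutamate transporter GLT-1 and Slc1a3 the glutamate transporter GLAST. Glul encodes glutamine synthetase, and Slc38a3 encodes SNAT3, through which astrocytes release glutamine. Slc6a11 encodes the GABA transporter GAT-3 and Slc6a9 the glycine transporter GlyT1. Glud1 encodes the mitochondrial glutamate dehydrogenase, and Abat the GABA transaminase that starts GABA breakdown.

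The series compared brain of a Plexin-B2 conditional knockout host (cKO, genotype Cx3cr1 CreER/+ Plxnb2fl/fl) with brain of a control host (Cx3cr1 CreER/+ Plxnb2 fl/+), both of C57BL/6 background. Both hosts had received KR158, a mouse glioblastoma cell line, by intracranial injection, and both received tamoxifen at 100 mg/kg from 3 days before the injection and then every other day until harvest at 8 weeks. The control is titled WT but carries 1 floxed Plxnb2 allele and the same Cre, which is driven from the Cx3cr1 locus and therefore acts in microglia and other myeloid cells, not in astrocytes. There was 1 droplet (10x 3′) library per genotype, so no difference below has a replicate check, no test between genotypes was possible, and the genotype cannot be told apart from the animal or the library preparation.

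After the same filters on both libraries, 5206 cKO and 7645 control cells were kept, with medians of 5917 and 4626 UMIs per cell, and 8 cell barcodes occurred in both libraries. The cKO matrix was deposited unfiltered, with 2377349 barcodes, and the control matrix with 10942. In microglia-like cells Plxnb2 had 42.2 CPM in cKO, against 215 CPM in control, where CPM is UMIs per 1e6 UMIs of a class and library. In astrocyte-like cells it had 38.6 and 33.1 CPM. The position of the floxed exons relative to the 3′ reads is not given in the sources used here. Choroid plexus-like cells numbered 4 in cKO and 358 in control, and the summed level of 8 choroid plexus markers in astrocyte-like cells was 18.2 CPM in cKO, with 1 of these markers at 0, against 1246 CPM in control.

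Classes were named from marker genes that include none of the 8 members, and the members were left out of the genes used for clustering. Astrocyte-like cells numbered 1530 in cKO and 2617 in control, and all 14 astrocyte markers of the naming set were detected in them, with summed levels of 14438 and 12957 CPM. The other classes with at least 100 cells in both libraries were oligodendrocyte-like (559 and 938 cells), microglia-like (902 and 1770), endothelial-like (888 and 686), neuroblast-like (242 and 141), ependymal-like (111 and 240) and pericyte-like or smooth muscle-like cells (169 and 166). Bracketed ranges are 95% intervals for counting error only, exact Poisson for CPM, exact binomial for shares and exact conditional for ratios.

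Of the 8 members, 7 had their highest CPM in astrocyte-like cells, in the cKO and in the control library alike. The exception was Slc6a9, which was highest in oligodendrocyte-like cells. The members nevertheless fell into different patterns: Slc1a2, Slc1a3 and Slc6a11 had 85.9% or more of their UMIs in astrocyte-like cells in either library, against 41.7% to 59.2% in cKO and 51.1% to 63.2% in control for the other 5. Glul and Glud1 were also found at appreciable levels in several other classes, and Slc6a9, Slc38a3 and Abat each had 1 or 2 further classes with high levels.

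**Figure D1:**
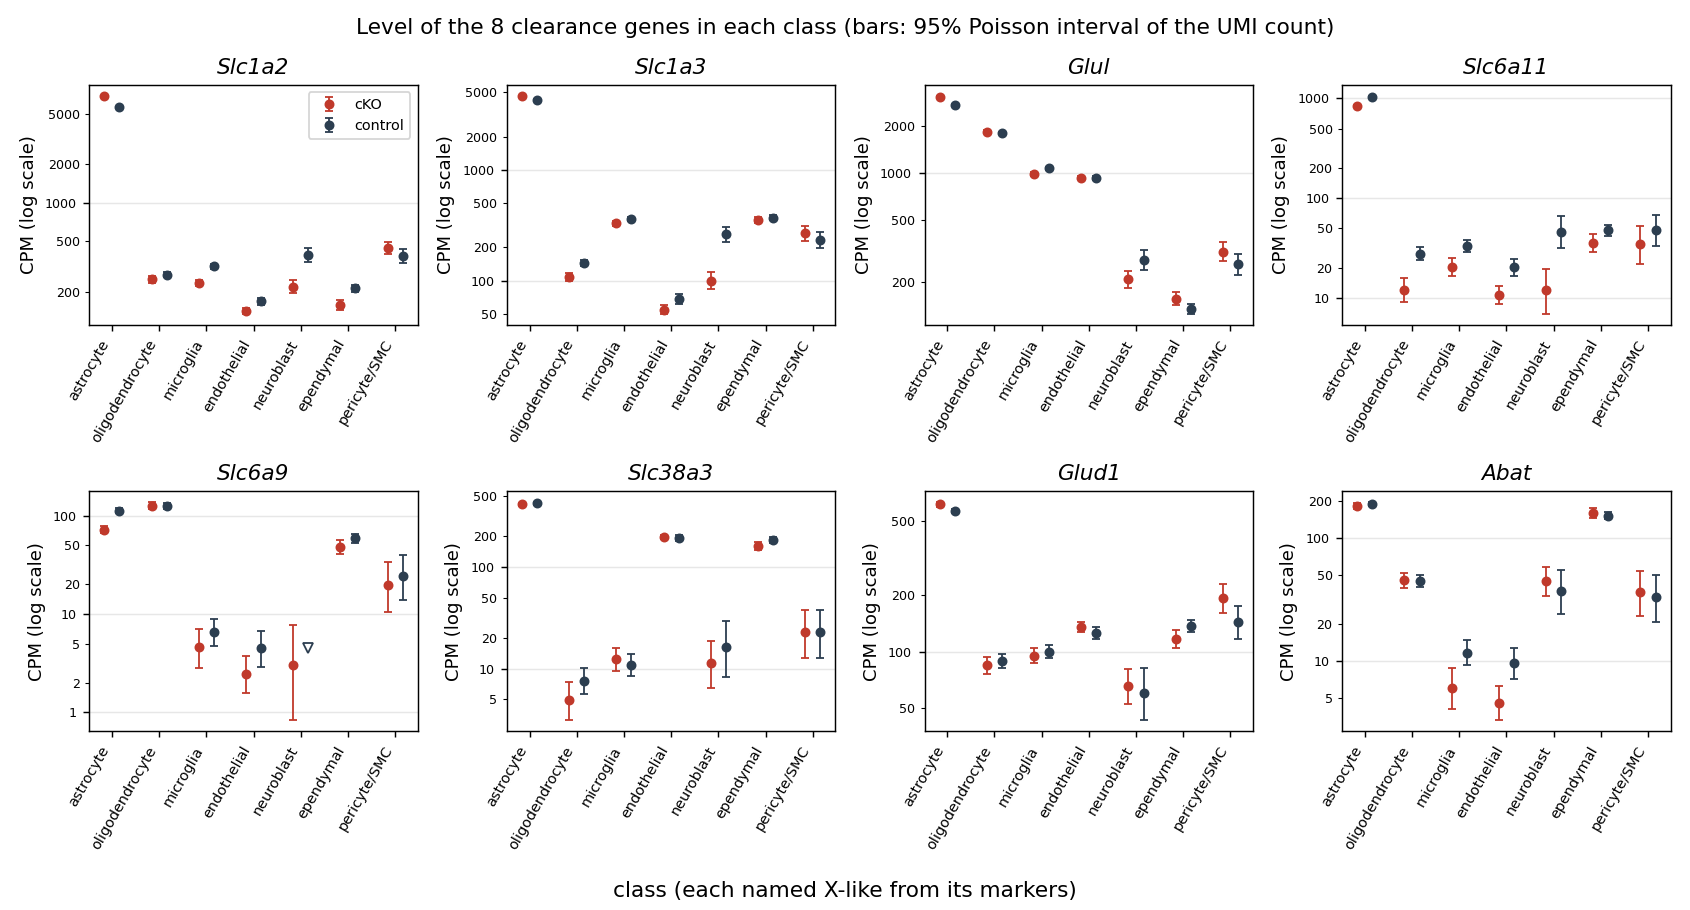
CPM (log scale) of each member in the 7 compared classes, with cKO (red) left of control (dark blue), and bars for the 95% Poisson interval of the UMI count; the open triangle marks the level that a count of 0 allows (3 UMIs). Slc1a2 stands at 6833 CPM in cKO and 5616 CPM in control astrocyte-like cells and at 442 CPM or less in every other class shown, whereas Glul declines stepwise through oligodendrocyte-like, microglia-like and endothelial-like cells.

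Slc1a2, the main glutamate transporter of the forebrain, had 6833 CPM (6777 to 6891) in cKO astrocyte-like cells and 5616 CPM (5574 to 5659) in control ones. In the 6 other compared classes it lay between 142 and 442 CPM in cKO and between 169 and 390 CPM in control. Of all Slc1a2 UMIs in kept cells, 89.2% came from astrocyte-like cells in cKO and 87.4% in control, shares that also depend on how many cells of each class were captured.

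Slc1a3, which is also used as a marker of radial glia, had 4611 CPM in cKO and 4306 CPM in control astrocyte-like cells. Ependymal-like cells followed with 351 and 372 CPM and microglia-like cells with 329 and 361 CPM, and the intervals of these 2 classes overlapped in each library. Oligodendrocyte-like cells had 108 and 145 CPM and endothelial-like cells 55.03 and 68.9 CPM. With each cell thinned to 1000 UMIs, Slc1a3 was detected in 28.5% of cKO and 30.4% of control microglia-like cells, against 10.2% and 11.3% of oligodendrocyte-like and 4.95% and 7.73% of endothelial-like cells, while unthinned median depths were 4380.5 and 3392.5, 7585 and 6393, and 7231 and 5968.5 UMIs in those classes.

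RNA from lysed cells can place a few UMIs of an abundant gene in any droplet. In 1448877 cKO barcodes of 1 to 100 UMIs, which sample free RNA and debris, Slc1a2 had 1628 CPM, Slc1a3 765 CPM, Glul 1256 CPM and Slc38a3 181 CPM. Slc6a11 had 230 CPM, Slc6a9 45.4 CPM, Glud1 241 CPM and Abat 57.2 CPM there, and the control matrix holds no such barcodes. The ratio of Slc1a2 to Slc1a3 UMIs was 2.13 (2.04 to 2.22) in these barcodes, and 1.48 in cKO and 1.30 in control astrocyte-like cells. It was 2.32 and 1.89 in oligodendrocyte-like and 2.58 and 2.45 in endothelial-like cells, but 0.714 and 0.880 in microglia-like and 0.451 and 0.574 in ependymal-like cells. In cKO, microglia-like and ependymal-like cells thus held more Slc1a3 per Slc1a2 UMI than the low barcodes did, beyond counting error, while the interval of oligodendrocyte-like cells (2.09 to 2.58) overlapped that of the low barcodes. The part of free RNA in the levels of the other classes was not tested.

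Glul had 3068 CPM in cKO and 2720.5 CPM in control astrocyte-like cells. Oligodendrocyte-like cells were next with 1835 and 1789 CPM, then microglia-like with 984 and 1063 CPM and endothelial-like with 924 and 929 CPM, and the lowest level was in ependymal-like cells with 156 and 133 CPM. In cKO no neighbours in this order of 7 classes had overlapping intervals. After thinning, Glul was detected in 91.1% of cKO and 87.9% of control astrocyte-like cells and in 75.5% and 75.4% of oligodendrocyte-like cells. The ratio of Glul to Slc1a2 UMIs was 0.449 and 0.484 in astrocyte-like cells, against 7.31 and 6.54 in oligodendrocyte-like, 4.18 and 3.35 in microglia-like and 6.51 and 5.51 in endothelial-like cells. In the cKO barcodes of 1 to 100 UMIs it was 0.772 (0.743 to 0.801), below the cKO value of each of these 3 classes.

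**Figure D2:**
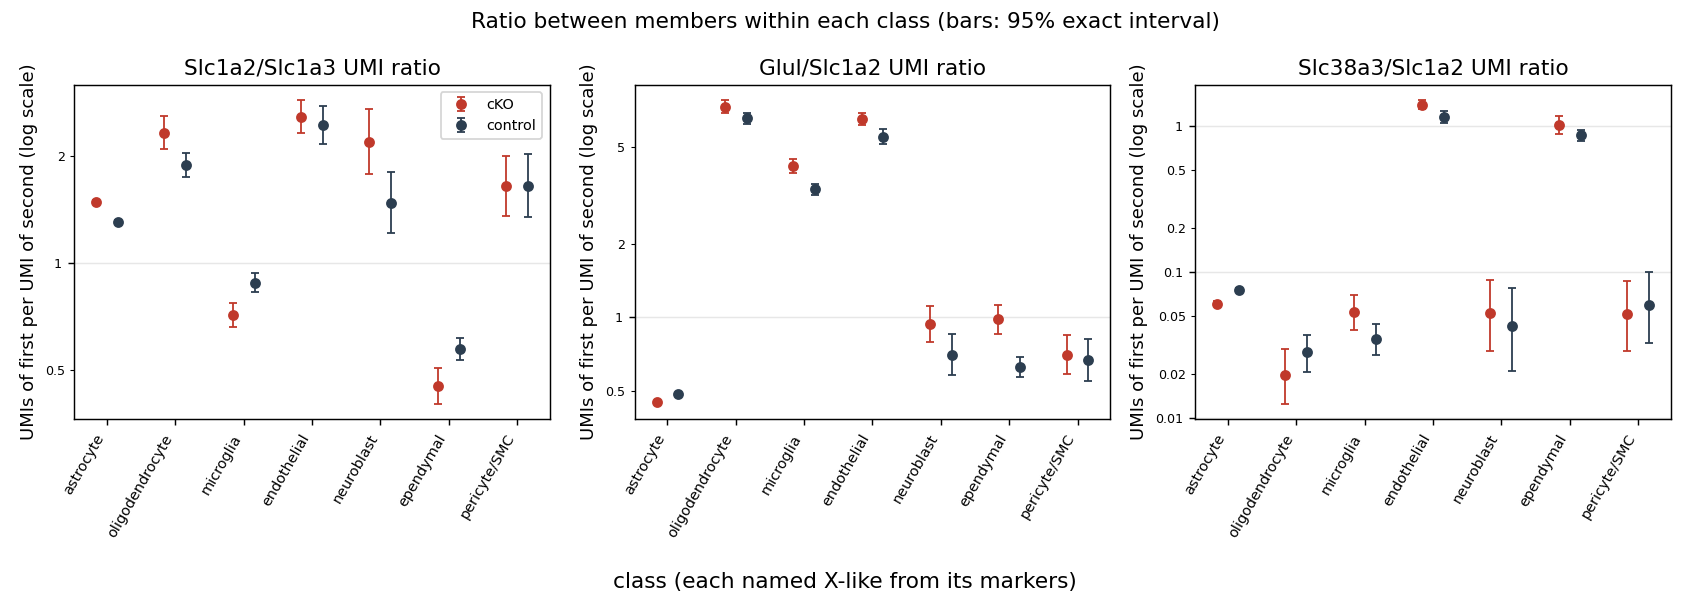
UMIs of one member per UMI of another within each class (log scale), with cKO (red) left of control (dark blue) and bars for the 95% exact interval. Glul per Slc1a2 is 0.449 in cKO and 0.484 in control astrocyte-like cells and above 3 in oligodendrocyte-like, microglia-like and endothelial-like cells, and Slc38a3 per Slc1a2 is near 1 in endothelial-like and ependymal-like cells.

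Slc6a11 had 836 CPM in cKO and 1043 CPM in control astrocyte-like cells, and between 10.8 and 35.8 CPM in the other 6 classes of cKO and between 20.5 and 48.6 CPM in those of control. Astrocyte-like cells held 92.6% of its UMIs in cKO and 91.01% in control. After thinning it was detected in 47.3% and 54.3% of astrocyte-like cells, against 0.716% and 2.88% of oligodendrocyte-like cells.

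The promoters of Slc1a3, Glul and Slc6a11 are shown because these genes differ in their spread over classes and over astrocyte-like clusters. Each covers 250 bases before and 50 after the gene's start, on the gene's strand, from RefSeq on GRCm38.p6, at chr15:8710758-8711057 (minus strand), chr1:153899679-153899978 (plus strand) and chr6:114130991-114131290 (plus strand). Capitals mark exact matches on either strand to 3 common promoter motifs, the CCAAT motif, the GC-box motif spelled GGGCGG and a core-promoter motif spelled TATAAA, and no matches overlap.
Slc1a3: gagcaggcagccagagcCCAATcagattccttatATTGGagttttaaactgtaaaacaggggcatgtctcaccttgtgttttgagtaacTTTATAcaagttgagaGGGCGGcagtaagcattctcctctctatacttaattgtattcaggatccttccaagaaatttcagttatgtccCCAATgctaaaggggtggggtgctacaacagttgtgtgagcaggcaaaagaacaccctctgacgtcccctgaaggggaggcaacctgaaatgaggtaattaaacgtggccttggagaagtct
Glul: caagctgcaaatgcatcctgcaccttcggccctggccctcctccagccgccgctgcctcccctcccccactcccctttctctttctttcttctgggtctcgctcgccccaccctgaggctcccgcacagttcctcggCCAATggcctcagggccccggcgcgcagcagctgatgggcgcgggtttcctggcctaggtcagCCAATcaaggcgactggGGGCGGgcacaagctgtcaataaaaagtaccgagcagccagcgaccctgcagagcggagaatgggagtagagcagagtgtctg
Slc6a11: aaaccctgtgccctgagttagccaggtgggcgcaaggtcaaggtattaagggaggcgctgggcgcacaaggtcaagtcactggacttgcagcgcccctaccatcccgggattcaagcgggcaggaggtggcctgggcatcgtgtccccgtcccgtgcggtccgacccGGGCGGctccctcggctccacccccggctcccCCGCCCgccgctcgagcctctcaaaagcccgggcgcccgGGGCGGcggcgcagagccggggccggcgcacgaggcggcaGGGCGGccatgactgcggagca
The Slc1a3 promoter holds 3 CCAAT, 1 GGGCGG and 1 TATAAA match and 3 CpG sites at 45.3% GC. The Glul promoter holds 2 CCAAT and 1 GGGCGG match and 17 CpG sites at 64.3% GC, and the Slc6a11 promoter 4 GGGCGG matches and 32 CpG sites at 72.3% GC. Over 32851 RefSeq promoters of the same length the median was 52.7% GC with 7 CpG sites, and 37.4% held CCAAT, 35.7% GGGCGG and 13.6% TATAAA. These matches describe the letters of the windows, and no factor's binding was measured.

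Slc6a9 had 71.9 CPM (66.1 to 77.9) in cKO and 113 CPM (107 to 119) in control astrocyte-like cells, against 127 CPM (117 to 138) in cKO and 126 CPM (117 to 135) in control oligodendrocyte-like cells. The intervals of the 2 classes overlapped in control and were separate in cKO. Ependymal-like cells had 48.2 and 58.9 CPM, and microglia-like, endothelial-like and neuroblast-like cells were below 7 CPM in both libraries. After thinning, Slc6a9 was detected in 5.69% of cKO and 10.1% of control astrocyte-like cells and in 11.1% and 11.2% of oligodendrocyte-like cells.

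Slc38a3 had 412 CPM in cKO and 420 CPM in control astrocyte-like cells, followed by endothelial-like cells with 197 and 193 CPM and ependymal-like cells with 160.03 and 183 CPM. Oligodendrocyte-like cells had the lowest level, 4.92 and 7.63 CPM. The ratio of Slc38a3 to Slc1a2 UMIs was 0.0602 and 0.0748 in astrocyte-like cells and 1.39 and 1.14 in endothelial-like cells, against 0.111 in the cKO barcodes of 1 to 100 UMIs. After thinning, Slc38a3 was detected in 18.8% of cKO and 17.2% of control endothelial-like cells, against 0.716% and 0.746% of oligodendrocyte-like cells.

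Glud1 had 616 CPM in cKO and 567 CPM in control astrocyte-like cells. The other compared classes lay between 65.5 and 193 CPM in cKO and between 59.99 and 144 CPM in control, with pericyte-like or smooth muscle-like cells at the upper end in both libraries and neuroblast-like cells at the lower end. Abat had 183 CPM (174 to 193) in cKO and 189 CPM (181 to 197) in control astrocyte-like cells, and ependymal-like cells had 161 CPM (146 to 177) and 153 CPM (142 to 163). These 2 classes had overlapping intervals in cKO and separate ones in control. Oligodendrocyte-like cells had 45.4 and 44.9 CPM of Abat, and microglia-like and endothelial-like cells 12 CPM or less.

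The genes whose class pattern was most like that of each member were ranked by Pearson's r of log2(CPM + 10) over 14 points, 7 classes in each of the 2 libraries, among 7578 genes. The points of 1 library share its depth and free RNA, so r is a description. For Slc1a2 the nearest genes were Lgi4 (0.995), Scrg1 (0.995) and Cldn10 (0.993), and for Slc1a3 they were F3 (0.965), Mmd2 (0.963) and Aldoc (0.958). For Slc6a11 they were F3 (0.989), Baalc (0.989) and Slc4a4 (0.987). Glul was nearest to Tmc7 (0.935), Cd47 (0.922) and Washc2 (0.910), and Slc6a9 to Gfra1 (0.963), Gprc5b (0.959) and Clmn (0.946). Slc38a3 was nearest to Smpdl3a (0.966), Kifc3 (0.960) and Csgalnact1 (0.952), Glud1 to Pgm1 (0.958), Fgfrl1 (0.955) and Phka1 (0.947), and Abat to Sqle (0.974), Bdh1 (0.969) and Cry2 (0.968). Among the members themselves, r was 0.912 between Slc1a2 and Slc1a3, 0.962 between Slc1a2 and Slc6a11, and -0.06 between Glul and Abat.

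Within the astrocyte-like class the members divided between clusters in opposite ways. The class held 6 clusters, 5 of them with at least 50 cells in both libraries, which are called here by leading genes. The Rorb-led cluster held 515 cKO and 1016 control cells, and the Crym-led cluster, with Hopx, Gfap and Lhx2 also leading, held 443 and 643. In both, 5 of 7 telencephalic astrocyte markers were detected, and in the Crym-led one also 4 of 7 subventricular and 4 of 7 fibrous markers. The Agt-led cluster held 213 and 592 cells, or 13.9% of cKO and 22.6% of control astrocyte-like cells, with 2 of 7 non-telencephalic markers detected, too few for a subtype name. A cluster led by Grin2c and Nwd1 held 158 and 134 cells, with medians of 3004 and 3163.5 UMIs, against 5613 and 4642 UMIs in the Rorb-led cluster. In the Grin2c-led cluster 10 of 14 astrocyte naming markers were detected at 2-fold over the other clusters, against 13 in the Rorb-led and 14 in the Crym-led one. An Igha-led cluster of low depth, with medians of 1613 and 1757.5 UMIs, held 161 and 226. The sixth cluster, led by interferon-induced genes such as Cxcl10 and Ifit3, held 40 and 6 cells and was not compared.

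The GABA and glycine transporters and Abat were highest in the Agt-led cluster, and Slc1a2 was lowest there. Slc6a11 itself ranks among the leading genes of the Agt-led cluster, although it was not used to make it. Slc6a11 had 2497 CPM in cKO and 2495 CPM in control cells of this cluster, against 516 to 702 CPM in cKO and 537 to 804 CPM in control cells of the other 4 clusters. Slc6a9 had 264 and 313 CPM there, against 31.1 to 48.02 CPM in cKO and 59.7 to 86.3 CPM in control cells of the other clusters. Abat had 249 and 252 CPM there, and its lowest levels, 82.7 and 107 CPM, were in the Grin2c-led cluster. Over 10 alternatives, most of which remade the clusters, the log2 of the highest over the lowest cluster stayed between 2.01 and 2.40 in cKO and 1.87 and 2.5004 in control for Slc6a11, and between 2.84 and 3.53 and 2.27 and 3.06 for Slc6a9. That of Abat, 1.59 in cKO and 1.24 in control, ranged from 0.84 to 1.63 and from 0.54 to 2.10.

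Slc1a2 ran the other way, with 3393 CPM in cKO and 3251 CPM in control cells of the Agt-led cluster and 11355 and 8754 CPM in the Grin2c-led cluster. The highest cluster stood 3.35-fold (3.21 to 3.49) over the lowest in cKO and 2.69-fold (2.59 to 2.80) in control. With a mitochondrial limit of 5% in place of 10%, which left 4 astrocyte-like clusters, the log2 of this spread was 0.70 in cKO and 0.78 in control, against 1.74 and 1.43 at the main limit, and the median mitochondrial share of the Grin2c-led cluster was 7.12% in cKO and 6.13% in control cells. Slc1a3 was nearly even over the 5 clusters, with 1.36-fold and 1.26-fold between the highest and the lowest. Its log2 spread, 0.44 and 0.34, ranged over the alternatives from 0.26 to 0.59 in cKO and from 0.05 to 0.59 in control.

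Glul and Glud1 were lowest in the Grin2c-led cluster, Glul at 1688 CPM in cKO and 1742 CPM in control and Glud1 at 264 and 399.8 CPM. Glul was highest in the Igha-led cluster, at 3802 and 3290 CPM. Glud1 was highest in the Igha-led cluster in cKO (716 CPM) and in the Crym-led cluster in control (609 CPM). Slc38a3 was highest in the Grin2c-led cluster, with 722 and 627 CPM. With the main filters the Grin2c-led cluster therefore combined the highest Slc1a2 and Slc38a3 with the lowest Glul, Glud1 and Abat, in both libraries. These spreads moved with the filters on cells, and the Igha-led cluster had medians of only 1613 and 1757.5 UMIs. With a floor of 2000 UMIs the log2 of the highest over the lowest cluster was 0.08 in cKO and 0.24 in control for Glud1, against 1.44 and 0.61 at the main floor. For Glul it was 0.51 and 0.67, against 1.17 and 0.92, and for Slc38a3 0.71 and 0.63, against 1.23 and 0.89. The summed astrocyte markers were also lowest in this cluster, at 10486 CPM in cKO and 11785 CPM in control, against 13526 to 15475 and 12600.0 to 13435 CPM in the other 4 clusters.

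**Figure D3:**
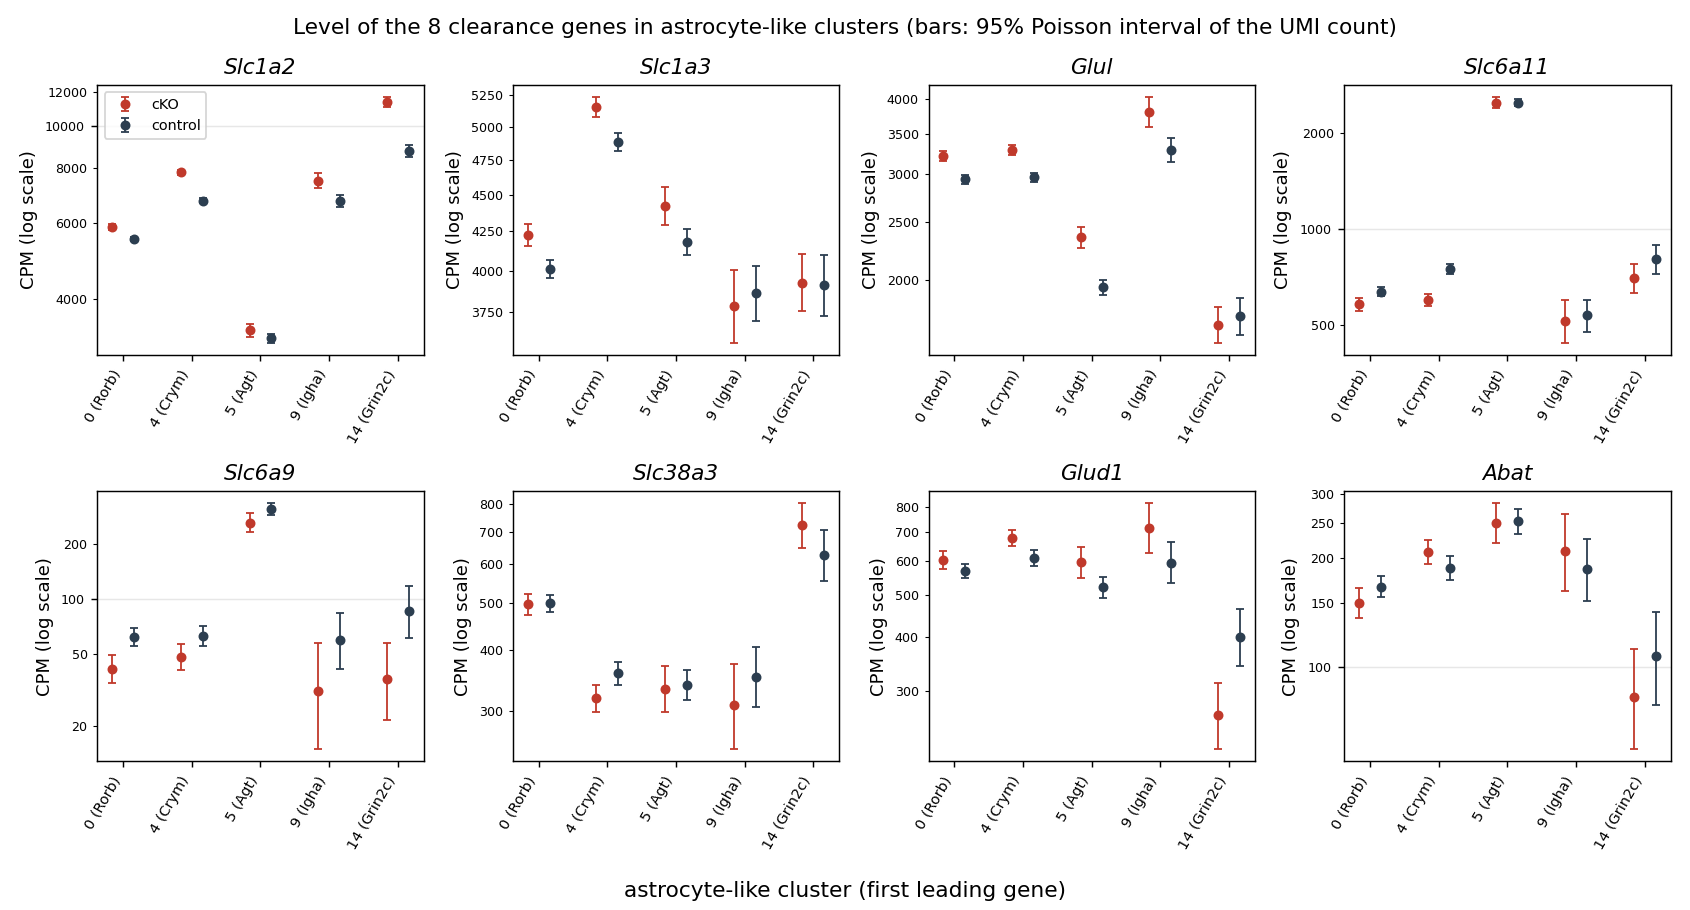
CPM (log scale) of each member in the 5 astrocyte-like clusters with at least 50 cells in both libraries, with cKO (red) left of control (dark blue) and bars for the 95% Poisson interval. The Agt-led cluster 5 is highest for Slc6a11, Slc6a9 and Abat and lowest for Slc1a2, and the Grin2c-led cluster 14 is highest for Slc1a2 and Slc38a3.

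Between genotypes, 1 of the 8 members, Slc6a9, fell in cKO astrocyte-like cells and none rose, where called means a ratio of at least 1.5-fold with an interval that excludes equality. Of all 6466 genes with a mean of at least 20 CPM in this class, 0.912% were called lower and 0.696% higher. The median log2 ratio of the 8 members was 0.03, and that of all genes tested was also 0.03. The members' ratios ran from -0.65 for Slc6a9 to 0.28 for Slc1a2.

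Slc6a9 had 583 UMIs in cKO and 1373 UMIs in control astrocyte-like cells, a log2 ratio of -0.65 (-0.79 to -0.51). The ratio was below 0 in all 5 clusters, from -0.25 in the Agt-led to -1.25 in the Grin2c-led one, and the interval excluded 0 in all but the Igha-led cluster, which held 10 and 33 UMIs. The Agt-led cluster, where Slc6a9 is highest, made up less of the class in cKO, and without it the log2 ratio was -0.48 (-0.68 to -0.28), under 1.5-fold. With a mitochondrial limit of 20% it was -0.56, also under 1.5-fold. The summed level of 9 oligodendrocyte markers in astrocyte-like cells, whose class also holds Slc6a9, was 588 CPM in cKO and 706 CPM in control with none at 0, and its part in the result was not tested.

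Slc6a11 had a log2 ratio of -0.32 (-0.36 to -0.28), which did not reach 1.5-fold. In the Agt-led cluster the ratio was 0.00 (-0.07 to 0.07), and it was -0.13 (-0.22 to -0.05) in the Rorb-led and -0.32 (-0.41 to -0.24) in the Crym-led cluster. In the Igha-led (-0.06, -0.34 to 0.22) and Grin2c-led clusters (-0.20, -0.41 to 0.02) the interval included 0. Without the Agt-led cluster the class value was -0.17 (-0.23 to -0.12), and with equal weight on the 5 clusters it was -0.14. A lower share of Agt-led cells in cKO and a lower CPM of Slc6a11 in 2 of the other 4 clusters were thus measured, and neither was replicated.

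Slc1a2 had a log2 ratio of 0.28 (0.27 to 0.30), Glul 0.17 (0.15 to 0.20), Glud1 0.12 (0.07 to 0.17) and Slc1a3 0.10 (0.08 to 0.12), all under 1.5-fold with intervals above 0. Slc1a2 was above 0 in each of the 5 clusters, from 0.06 in the Agt-led to 0.38 in the Grin2c-led one, and with a mitochondrial limit of 5% its class value was 0.09. The Agt-led cluster, where Slc1a2 is lowest, made up 13.9% of cKO and 22.6% of control astrocyte-like cells. The Grin2c-led cluster, where it is highest, made up 10.3% and 5.12%. With equal weight on the 5 clusters the value was 0.18 for Slc1a2, 0.14 for Glul, 0.02 for Glud1 and 0.04 for Slc1a3. Slc38a3 at -0.03 (-0.09 to 0.03) and Abat at -0.05 (-0.14 to 0.05) had intervals that include equality. In the Grin2c-led cluster alone, Glud1 had a log2 ratio of -0.60 (-0.94 to -0.26), from 131 cKO and 176 control UMIs.

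**Figure D4:**
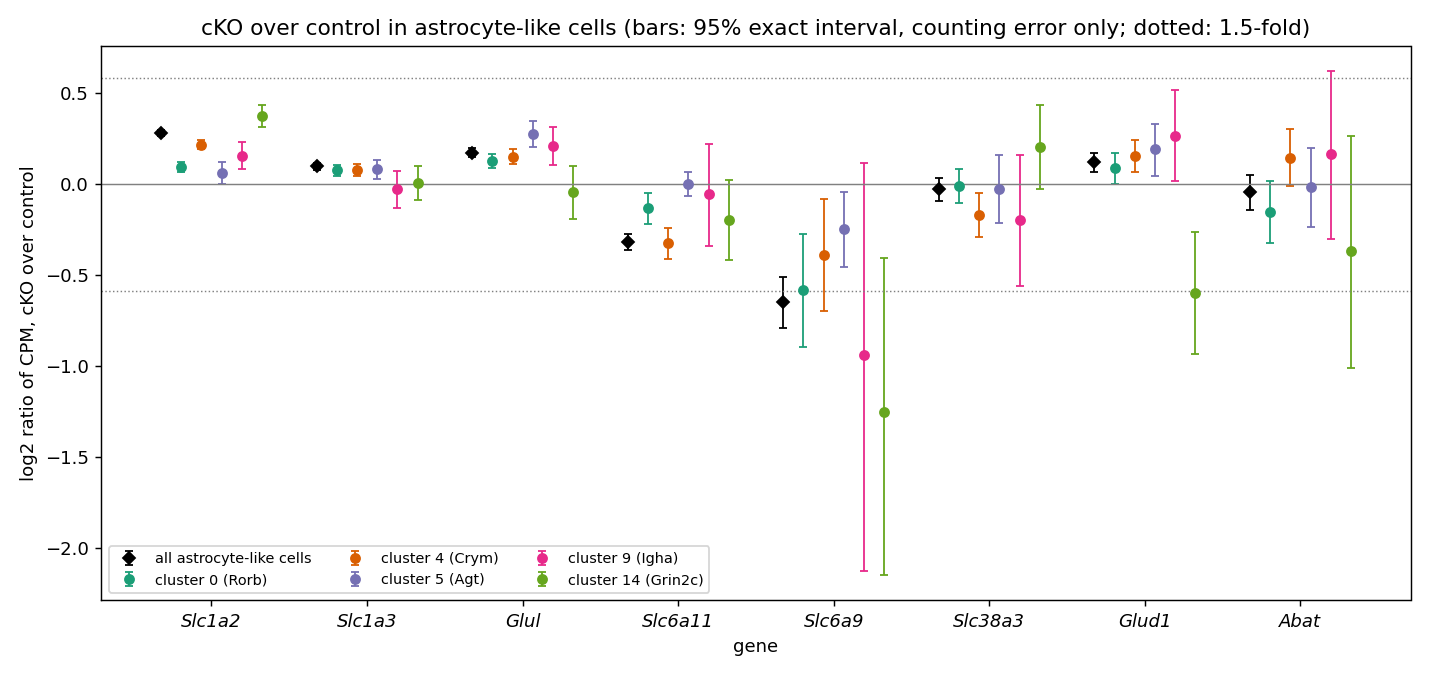
Log2 ratio of CPM, cKO over control, of each member in all astrocyte-like cells (black diamonds) and in each of 5 clusters (circles), with bars for the 95% exact interval and dotted lines at 1.5-fold. Slc6a9 is below 0 at every point and is the only member whose class value lies past the lower dotted line, and Slc6a11 is at 0.00 in the Agt-led cluster 5.

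Single astrocyte-like cells mostly held several members at once. At 1000 UMIs per cell, 94.4% of cKO and 92.4% of control cells had a UMI of both Slc1a2 and Slc1a3, and 0.392% and 0.459% had neither. At least 4 of the 8 members were detected in 79.2% and 79.7% of cells, and the median was 4 in both libraries. Without thinning, both glutamate transporters were detected in 99.4% of cKO cells.

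In the other classes the measured members, those with a mean of at least 20 CPM, were mostly at levels far below the astrocyte-like ones. In neuroblast-like cells 3 of 6 measured members fell in cKO, against 3.34% of all genes tested there. Slc1a3 had 101 CPM in cKO and 264 CPM in control (log2 ratio -1.39, -1.73 to -1.06), Slc1a2 220 and 390 CPM (-0.82, -1.07 to -0.58), and Slc6a11 12.2 and 46.5 CPM (-1.93, -2.90 to -1.02). The Slc6a11 ratio rested on 16 and 31 UMIs, and this gene reached the mean of 20 CPM only through its control level, which favours a lower call. Several astrocyte genes beyond the members were also lower in cKO in the summed UMIs of this class. The 14 astrocyte naming markers, of which 1 was at 0 in control, summed to 385 CPM in cKO and 690 CPM in control neuroblast-like cells. Of 12 astrocyte identity genes, a list that shares genes with these markers, 10 were measured and 6 were lower there. The part of these genes in the members' values was not tested. With a mitochondrial limit of 5% the Slc1a2 and Slc1a3 ratios were -0.18 and -0.37, and Slc1a2 was also under 1.5-fold with doublet calls kept (-0.53) and after thinning (-0.43). After thinning, Slc1a2 was detected in 18.2% of cKO and 18.4% of control neuroblast-like cells, Slc1a3 in 6.20% and 15.6%, and Slc6a11 in 0.413% and 4.26%.

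In oligodendrocyte-like cells 1 of 7 measured members was lower in cKO, against 1.22% of all genes tested, and this was Slc6a11 at 12.2 and 27.9 CPM (log2 ratio -1.20, -1.65 to -0.76). It reached the mean of 20 CPM there only through its control level, which favours a lower call. In microglia-like cells, the class in which the Cre acts, 1 of 5 measured members was lower, against 2.39% of genes, again Slc6a11, at 20.5 and 33.5 CPM (-0.70, -1.07 to -0.35). The microglial value was under 1.5-fold or uncertain with a floor of 2000 UMIs (-0.47), a mitochondrial limit of 5% (-0.42), resolution 2.0 (-0.49) and thinning (-0.54), and was 0.08 with doublet calls kept and 0.60 after subtraction of the oligodendrocyte-like level. In oligodendrocyte-like cells at resolution 0.5, Slc1a2 (-0.60) and Slc1a3 (-0.71) were past 1.5-fold too, against -0.12 and -0.42 at the main resolution. In both classes Slc6a11 lay within the low range of all classes that are not astrocyte-like, and the share of thinned cells with a UMI was 0.716% in cKO and 2.88% in control oligodendrocyte-like cells and 2.66% and 3.90% in microglia-like cells. The cKO barcodes of 1 to 100 UMIs held 900 UMIs of Slc6a11 and 6379 of Slc1a2. In cKO the counts were 57 and 1173 in oligodendrocyte-like, 94 and 1076 in microglia-like, and 16 and 289 in neuroblast-like cells. The part of free RNA in the Slc6a11 values of these classes was not tested.

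No member was called in endothelial-like cells (5 measured, 2.35% of all genes called in either direction), in ependymal-like cells (8 measured, 2.82%) or in the pericyte-like or smooth muscle-like class (8 measured, 8.18%). Glul, at 924 CPM in cKO and 929 CPM in control endothelial-like cells, had a log2 ratio of -0.01 (-0.06 to 0.04). In oligodendrocyte-like cells the ratio of Glul was 0.04 (0.00 to 0.08) and that of Slc6a9 0.01 (-0.14 to 0.17). Pericyte-like or smooth muscle-like values rested on few cells, and their calls depended on the processing. With a floor of 2000 UMIs 6 of the 8 members were called higher there, with log2 ratios from 0.59 for Glud1 to 2.53 for Slc38a3, and Slc1a2 and Slc1a3 had 1.31 and 1.38, against 0.20 and 0.20 at the main floor. With a floor of 500 UMIs these 2 were called higher (0.79 and 0.62), and with the oligodendrocyte-like level subtracted these 2 and Glud1 were (0.77 to 0.98). The share of all genes called higher was not computed for these alternatives, so these counts have no background. In the main setting it was 5.25% in this class. With doublet calls kept Slc1a2 and Slc1a3 had -0.21 and -0.18. In ependymal-like cells Slc1a2, at 158 CPM in cKO and 214 CPM in control (-0.43), had -0.99 after thinning.

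Other genes of the pathway were read from lists. Of all genes tested in astrocyte-like cells, 0.696% were called higher and 0.912% lower. Of 15 further transporters of glutamate, GABA, glycine and glutamine, 8 were measured in these cells. Among them 1 was higher and none lower, with a median log2 ratio of -0.06. The gene that rose was Slc38a1, a neutral amino acid transporter that carries glutamine, at 62.9 CPM in cKO and 36.9 CPM in control (0.77, 0.58 to 0.96). Slc7a11, a subunit of the cystine-glutamate exchanger, had 315 CPM in cKO and 370.3 CPM in control (-0.23). Of 14 further enzymes, 10 were measured and none was called, with a median of 0.09. Among them Gldc, the glycine decarboxylase of the glycine cleavage system, had 164 CPM in cKO and 131 CPM in control (0.33).

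Of 13 glutamate, GABA and glycine receptor genes, 9 were measured and none was called, with a median of 0.13. Gria1, an AMPA receptor subunit that also ranks among the leading genes of the Agt-led cluster, had 59.3 and 87.1 CPM (-0.55). None of 4 vesicular transporter genes, which mark neurotransmitter-releasing neurons, reached a mean of 20 CPM. Of 11 genes for ion and water handling, 10 were measured and 1 fell, against 0.912% of all genes tested. The gene that fell was Kcnj10, the potassium channel Kir4.1 whose activity supports glutamate uptake. It had 239 CPM in cKO and 404 CPM in control (-0.76, -0.84 to -0.68). Aqp4, the astrocyte water channel, had 600.4 and 588 CPM (0.03).

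Lists that bear on the state of the cells moved as follows. All 7 measured genes of 12 interferon-induced genes were higher in cKO astrocyte-like cells, against 0.696% of all genes tested, with a median of 2.16. Of these, Isg15, Ifit1 and Bst2 reached the mean of 20 CPM only through their cKO level, which favours a higher call. The listed genes under this minimum also had positive log2 ratios, from 1.80 for Ifi27l2a to 3.19 for Usp18. The class holds the cluster led by interferon-induced genes, with 40 cKO and 6 control cells, and its part in these ratios was not tested. Of 12 reactivity genes 2 were measured and 1 was higher, Gfap, the astrocyte intermediate filament gene, at 90.1 CPM in cKO and 58.2 CPM in control (0.63, 0.48 to 0.78). None of the 4 measured genes of 12 stress genes and none of 12 measured astrocyte identity genes was called, with medians of -0.13 and 0.19. The part of these lists in the members' ratios was not tested.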

How the data were processed

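Tissue pieces around the graft were dispersed with papain, and droplets were processed with a 10x Genomics 3′ kit, per the labels' protocols. The authors deposited raw counts of UMIs for each gene in each barcode. They come from Cell Ranger 7.1.0 and build mm10, per the submitters' processing notes; counting of introns is not given in the sources used here. Barcodes were kept with 1000 or more UMIs, 500 or more genes, a mitochondrial share of 10% or less and no Scrublet doublet call (expected 6%; 3.56% of cKO and 5.24% of control cells called). Both libraries were then clustered jointly (scanpy 1.11.5, 2000 variable genes without the members, 30 components, 15 neighbours, leidenalg 0.10.2 at resolution 1.0, no batch integration) into 31 clusters.

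A cluster took a class name from at least 3 markers detected in at least 10% of its cells and at 2-fold over the other clusters. A limit on second-class markers (2/3), haemoglobin genes on top, and the tie-break were set after the data were seen. In all, 6 clusters, with 9.87% of cKO and 4.92% of control cells, stayed unnamed.

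UMIs were summed per class and library. The log2 ratio is cKO over control CPM with an exact conditional 95% interval; all intervals cover counting error only. The ratio step was run on simulated counts drawn with counting error only, so that run cannot speak to variation between cells, animals or libraries. Promoters came from RefSeq tables, which hold 6 of the 8 members. GENCODE vM21 holds 99.6% of the gene identifiers. Named genes were all members, the 3 genes most like each, and up to 5 per list with the highest absolute ratio, plus list genes named beside a result. The members, lists and tests were chosen with earlier results of these data known. Alternatives covered filters, resolution, doublets, clustering genes, thinning, scaling (edgeR 4.0.16 for TMM) and subtraction of the oligodendrocyte-like level. That subtraction was meant for free RNA, but it also removes what oligodendrocyte-like cells themselves express. Leaving out astrocyte-like clusters or weighting them equally was added after the data were seen.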

Additional observations from a re-analysis of the deposited data

Results flagged for a closer look

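Members whose log2 ratio of cKO over control lay below 0 in one class and above 0 in astrocyte-like cells, with both 95% intervals excluding 0, were singled out. The difference between classes was not tested in any of these cases, since each class had 1 library per genotype. Slc1a2, at 0.28 in astrocyte-like cells, had -0.12 in oligodendrocyte-like, -0.43 in microglia-like, -0.25 in endothelial-like, -0.82 in neuroblast-like and -0.43 in ependymal-like cells. Slc1a3, at 0.10 in astrocyte-like cells, had -0.42 in oligodendrocyte-like, -0.13 in microglia-like, -0.32 in endothelial-like and -1.39 in neuroblast-like cells. Glul, at 0.17 in astrocyte-like cells, had -0.11 in microglia-like and -0.41 in neuroblast-like cells, and Glud1, at 0.12, had -0.23 in ependymal-like cells. The summed astrocyte markers in these classes were also lower in cKO than in control in oligodendrocyte-like (359 and 402 CPM), microglia-like (347 and 451 CPM), endothelial-like (286 and 388 CPM) and neuroblast-like cells (385 and 690 CPM), and near equal in ependymal-like cells (3721 and 3698 CPM); their part in these values was not tested.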

How the results depend on the processing

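Over the alternatives run, the median log2 ratio of the 8 members in astrocyte-like cells lay between -0.01 and 0.11, no member was called higher, and 7 of 8 members were highest in astrocyte-like cells in both libraries, or all 8 in control with a mitochondrial limit of 20%. The count of members lower in astrocyte-like cells was 1, and it was 0 with a mitochondrial limit of 20%, without the Agt-led cluster, and with the oligodendrocyte-like level subtracted, where Slc6a9 has no value because that level is the higher one. The ratios of Slc1a2 (0.09 to 0.38), Slc1a3 (0.04 to 0.11), Glul (0.12 to 0.40) and Glud1 (0.02 to 0.16) stayed above 0 and those of Slc6a11 (-0.42 to -0.14) and Slc6a9 (-0.83 to -0.48) below 0, while Slc38a3 (-0.21 to 0.06) and Abat (-0.17 to 0.10) took both signs. The Glul value of 0.40 came with the oligodendrocyte-like level subtracted. That level, 1835 CPM in cKO and 1789 CPM in control, was not shown to be free RNA. The spread between astrocyte-like clusters lay outside its main counting interval in 30 of 80 values in cKO and 40 of 80 in control over the 8 members, and in the pericyte-like or smooth muscle-like class 11 of 91 alternative values were past 1.5-fold and a further 9 lay outside the main interval. Slc6a11 in microglia-like cells, at -0.70, was 0.0801 with doublet calls kept, and the cause was not tested. It was 0.60 with the oligodendrocyte-like level subtracted. This took 12.2 CPM from 20.5 CPM in cKO and 27.9 CPM from 33.5 CPM in control, and so left low levels. Counts over all genes moved with the minimum level: with no minimum CPM, 443 genes were called higher and 561 lower in astrocyte-like cells (45 and 59 at the main minimum), 220 and 708 in oligodendrocyte-like (24 and 71), 623 and 920 in microglia-like (188 and 153), 254 and 710 in endothelial-like (65 and 83), 226 and 413 in neuroblast-like (137 and 207), 607 and 278 in ependymal-like (143 and 59) and 498 and 292 in the pericyte-like or smooth muscle-like class (345 and 193). No paired analysis was possible because each genotype had 1 library.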

Other observations

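Some classes were too small in one library to be compared. In the 358 choroid plexus-like control cells Slc38a3 had 133 CPM (123 to 144) and Abat 110 CPM (100.5 to 120.1), while Slc1a2 had 104 CPM and Slc6a11 23.5 CPM. The 26 neuron-like control cells, with a median of 2009 UMIs, had 1277 CPM of Slc1a2, 1205 CPM of Slc1a3 and 525 CPM of Glul, and no Slc6a9 UMI, which at 3 UMIs allows up to 30.9 CPM. The Slc1a3 UMIs came from 7 of these 26 cells, and the level was 654 CPM with each cell thinned to 1000 UMIs. Border macrophage-like cells (78 in cKO and 136 in control) had 118 and 399 CPM of Slc1a2, 454 and 543 CPM of Glul, and 9.27 and 74.5 CPM of Slc6a11. Neural progenitor-like cells (99 and 88) had 240.4 and 335 CPM of Slc1a3.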
